A study of Mus musculus with 4 samples.

Results

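Cathepsins are proteases of the lysosome, the acidic compartment in which cells break proteins down. Most belong to the papain family of cysteine proteases (CTSB, CTSC, CTSH, CTSL, CTSS and CTSZ), while CTSD is an aspartic protease and CTSA a serine carboxypeptidase. Legumain, encoded by LGMN, cuts after asparagine and helps to mature other lysosomal enzymes, and cystatin C, encoded by CST3, is a secreted inhibitor of the papain family. In antigen-presenting and other myeloid cells these enzymes are known for trimming the class II invariant chain and for activating granule proteases.

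The 10 genes were taken by name from the deposited count table, and each matched 1 of its 58735 rows. All 10 passed the expression filter and were tested among 15294 genes. CTSL and CTSZ passed that filter through their reads in the libraries labelled knockout, because fewer than 2 wild-type libraries reached its minimum.

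The study compared Jurkat cells labelled MATR3 knockout (made with CRISPR-Cas9, 2 libraries) with Jurkat cells labelled wild-type (2 libraries). Jurkat is a leukaemia line grown from human T cells, and MATR3 encodes the nuclear matrix protein matrin 3, which binds RNA. Both groups were grown in 1640 medium with 10% serum. The organism field says mouse, but the table holds human genes. The labels do not say whether the knockout was a clone or a pool, or whether libraries of a group came from separate cultures. The p-values set the difference between groups only against the spread of these libraries within a group, and that spread may be technical.

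The libraries held 15008554 to 17477643 counted reads. The main MATR3 row (ENSG00000015479) had 42 and 61 reads in the libraries labelled knockout, against 19 and 9 in wild-type, which goes against the label. A second MATR3 row overlaps it and reads in the shared part may be counted for neither, so these rows do not check the knockout. Every direction below compares the libraries that carry the knockout label with wild-type. CPM values, used from here on, are reads scaled to the library total and the TMM factor. Of 12 T cell markers tested, 11 were lower and 0 higher, and their summed level was 1286 to 1329.7 CPM in the libraries labelled knockout and 3033 to 3263 CPM in wild-type. Of 17 myeloid markers, 15 were tested, 14 were higher and 0 lower. Their summed level was 5726 to 5860.1 CPM in the libraries labelled knockout and 168 to 176 CPM in wild-type. Over all genes tested, 33.7% were higher and 32.3% lower. Several of the 14 passed the expression filter only through the libraries labelled knockout, so they could hardly be called lower. Examples are LYZ, with 1 and 1 wild-type reads, and CSF1R, with 2 and 3. MPO alone had 4972.5 and 4866.7 CPM in the libraries labelled knockout, against 8.5 and 9.36 CPM in wild-type. It thus made up most of the myeloid sum in the libraries labelled knockout. Among the other myeloid markers CD14 had 4 to 8 reads in each library, and S100A8 had 0 reads in all 4. The part of any such shift in the results below was not tested. In bulk libraries, more cells with a transcript and more RNA per cell cannot be told apart.

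Of the 10 genes, 7 were higher, 1 was lower and 2 did not pass the test in the libraries labelled knockout. By edgeR's quasi-likelihood test with Benjamini-Hochberg adjustment over all genes tested, 66.0% of genes passed the threshold of 0.05, 33.7% as higher and 32.3% as lower. The groups did not overlap for 8 of the 10 genes, against 82.0% of all genes tested. CTSS, CTSL and CTSZ were each at least 16-fold higher, which held for 3.5% of all genes tested. CTSL and CTSZ passed the expression filter only through the libraries labelled knockout, so their part in this count is no independent evidence. With CTSC added, 4 of the 10 changed at least 2-fold, against 26.3% of all genes tested in either direction. The median log2 fold change was 0.84 over the 10 genes and 0.02 over all genes tested. The changes fell into 3 ranges. CTSS, CTSL and CTSZ stood at 2.89 CPM or less in every wild-type library and rose by 5.98 to 6.51 on the log2 scale. CTSC, CST3, CTSA and CTSD were already abundant and rose by 0.36 to 1.01 on the log2 scale, and CTSB, CTSH and LGMN did not rise.

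**Figure D1:**
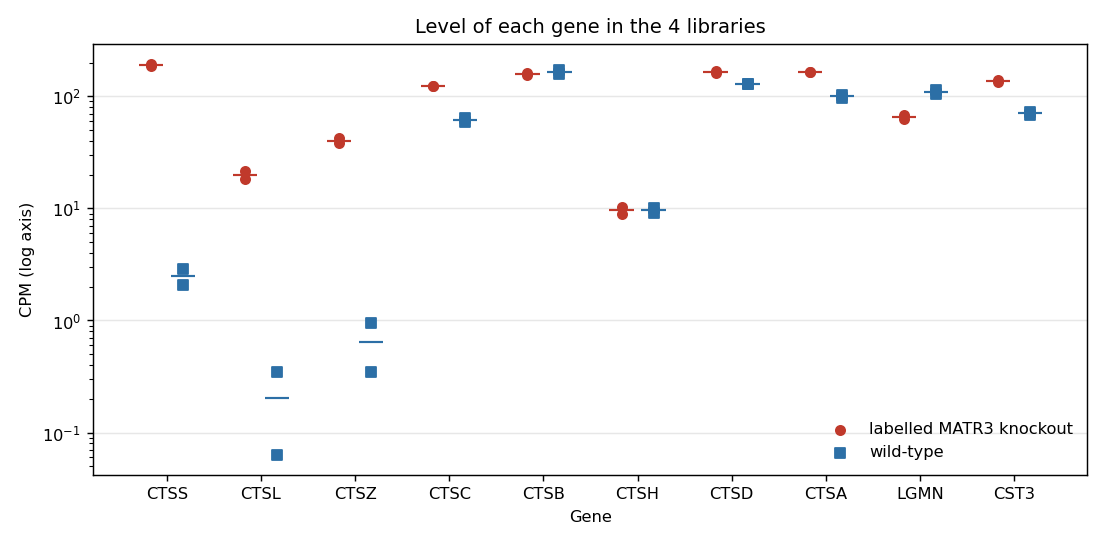
Level of each of the 10 genes in CPM (reads scaled to library size, log axis) in each library, with circles for libraries labelled knockout, squares for wild-type and short lines for group means (n = 2 each). CTSS, CTSL and CTSZ stand apart by more than 1 decade between the groups, while CTSB and CTSH overlap.

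CTSS encodes cathepsin S, an endopeptidase known in antigen-presenting cells for degrading the invariant chain that blocks class II molecules (ENSG00000163131, chromosome 1, 150730196 to 150765957 in the table's coordinates, whose build the sources used here do not name). It had 187 and 196 CPM in the libraries labelled knockout, against 2.07 and 2.89 CPM in wild-type. Both libraries labelled knockout lay far above both wild-type libraries. These values rest on 2741 and 2904 reads in the libraries labelled knockout, and 36 and 46 in wild-type. It was higher by 6.28 on the log2 scale (SE 0.12, edgeR quasi-likelihood test, adjusted p = 4.1e-57), a 77.2-fold difference in mean CPM.

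CTSL encodes cathepsin L, a general endopeptidase of the lysosome (ENSG00000135047, chromosome 9, 87725519 to 87731393). It had 18.4 and 21.4 CPM in the libraries labelled knockout, against 0.344 and 0.0628 CPM in wild-type. The wild-type values rest on 6 reads and 1 read, against 270 and 317 reads in the libraries labelled knockout. The groups did not overlap, but the small wild-type counts leave the size of the difference imprecise. It was higher by 6.51 on the log2 scale (SE 0.32, edgeR quasi-likelihood test, adjusted p = 3.04e-30), and the 95% exact conditional interval of the ratio of 94.8 ran from 45.7 to 237, which covers counting error only. Without wild-type replicate 1 the log2 fold change was 8.15, and without wild-type replicate 2 it was 5.81. The pseudogene CTSLP2, with 2 rows, belongs to its sequence family, so a split of reads is possible. The longer row had 17 and 5 reads in the libraries labelled knockout and 12 and 14 in wild-type. The shorter row had 1 and 1 reads in the libraries labelled knockout and 3 and 7 in wild-type.

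CTSZ encodes cathepsin Z, also called cathepsin X, a carboxypeptidase of the papain family known from immune cells (ENSG00000101160, chromosome 20, 58995185 to 59007247). It had 38.2 and 42.2 CPM in the libraries labelled knockout, against 0.344 and 0.942 CPM in wild-type. The wild-type libraries held 6 and 15 reads and the libraries labelled knockout 560 and 626, with no overlap. It was higher by 5.98 on the log2 scale (SE 0.23, edgeR quasi-likelihood test, adjusted p = 3.48e-37). Leaving out wild-type replicate 1 gave 5.42, and leaving out wild-type replicate 2 gave 6.82.

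The other papain-family members had at least 132 reads in each of the 4 libraries. CTSC encodes cathepsin C, or dipeptidyl peptidase I, which activates granzymes and neutrophil serine proteases (ENSG00000109861, chromosome 11, 88293592 to 88337787). It had 124 and 123 CPM in the libraries labelled knockout, against 58.4 and 64.4 CPM in wild-type. The groups did not overlap, with a log2 fold change of 1.01 (SE 0.08; edgeR quasi-likelihood test, adjusted p = 4e-19). CTSB encodes cathepsin B, which acts as both an endopeptidase and a dipeptidyl carboxypeptidase (ENSG00000164733, chromosome 8, 11842524 to 11869448). It had 160.2 and 156 CPM in the libraries labelled knockout, against 173 and 159 CPM in wild-type, and the groups overlapped. The log2 fold change was -0.07 with a 95% interval of -0.22 to 0.07 (adjusted p = 0.394, edgeR quasi-likelihood test). Leaving out wild-type replicate 2 gave -0.14 (adjusted p = 0.02, edgeR quasi-likelihood test). CTSH encodes cathepsin H, an aminopeptidase (ENSG00000103811, chromosome 15, 78921058 to 78949574). It had 10.4 and 8.9 CPM in the libraries labelled knockout, against 10.1 and 9.11 CPM in wild-type, and the groups overlapped. Its log2 fold change was 0.0030 with a 95% interval of -0.37 to 0.37 (adjusted p = 0.99, edgeR quasi-likelihood test). The interval is wider than the one for CTSB, and CTSH had 284 reads over the libraries labelled knockout and 321 over wild-type.

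**Figure D2:**
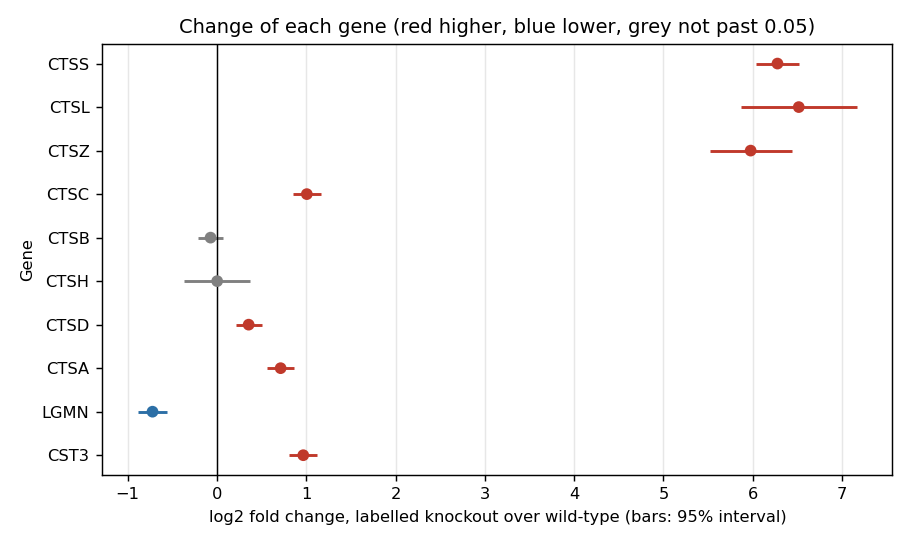
Log2 fold change of each gene, libraries labelled knockout over wild-type, with 95% intervals as lines (n = 2 each). The intervals of CTSS, CTSL and CTSZ lie between 5.52 and 7.16, apart from those of the other 7 genes, of which the highest bound is 1.17. The intervals of CTSL and CTSZ understate the uncertainty that comes with few wild-type reads. When each library was left out, CTSL ranged from 5.81 to 8.15 and CTSZ from 5.42 to 6.82.

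The proteases outside the papain family changed by less than 2-fold, in both directions. CTSD encodes cathepsin D, the main aspartic protease of lysosomes (ENSG00000117984, chromosome 11, 1752752 to 1764573). It had 161 and 167 CPM in the libraries labelled knockout, against 127 and 129 CPM in wild-type. The difference was small but exceeded the spread between libraries, with a log2 fold change of 0.36 (SE 0.07; edgeR quasi-likelihood test, adjusted p = 1.6e-05). A same-strand row, AC068580.4, overlaps CTSD over 11203 bases and held 1 to 3 reads per library. AC068580.1 on the same strand held 7 to 12, and AC068580.3 on the opposite strand 7 to 17. Reads in the parts shared with such rows may be missing from CTSD in all 4 libraries. CTSA encodes cathepsin A, also called protective protein, which stabilises beta-galactosidase and neuraminidase 1 (ENSG00000064601, chromosome 20, 45890144 to 45898820). It had 163.1 and 163.5 CPM in the libraries labelled knockout, against 101.7 and 97.4 CPM in wild-type, and its log2 fold change was 0.71 (SE 0.07; edgeR quasi-likelihood test, adjusted p = 8.18e-14). PLTP and NEURL2 overlap CTSA on the opposite strand over 200 and 1144 bases. NEURL2 held 11 and 14 reads in the libraries labelled knockout and 7 and 4 in wild-type, and PLTP held 53 and 49 against 18 and 14, each well below the 1551 reads or more of CTSA.

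LGMN was the only one of the 10 genes that was lower by the test (ENSG00000100600, chromosome 14, 92703807 to 92748702). It had 68.7 and 63.1 CPM in the libraries labelled knockout, against 113 and 104 CPM in wild-type. The groups did not overlap, and the log2 fold change was -0.72 (SE 0.08; edgeR quasi-likelihood test, adjusted p = 1.28e-12). CST3, the inhibitor among the 10, went the other way (ENSG00000101439, chromosome 20, 23626706 to 23638473). It had 139 and 135 CPM in the libraries labelled knockout, against 73 and 67.5 CPM in wild-type. Its log2 fold change was 0.97 (SE 0.08; edgeR quasi-likelihood test, adjusted p = 9.19e-19), with no overlap of the groups.

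Levels of different genes were compared as CPM per kilobase of the deposited gene length. In the libraries labelled knockout CTSD was highest at 52.5 ± 1.25 CPM per kilobase (SD, n = 2), followed by CTSS at 45.3 ± 1.47 and CST3 at 37.2 ± 0.736. In wild-type CTSD was also highest at 41 ± 0.327 CPM per kilobase (SD, n = 2), followed by LGMN at 27.8 ± 1.61 and CTSB at 22.3 ± 1.27. CTSS thus stood at position 2 in the libraries labelled knockout and at position 8 in wild-type, and LGMN at positions 7 and 2. The rest of the order in the libraries labelled knockout was CTSA, CTSB, CTSZ, LGMN, CTSC, CTSL and CTSH, from 27.9 down to 1.64 CPM per kilobase. There CTSB and CTSZ, neighbours in the order, differed by 1.55 CPM per kilobase, less than the sum of their SDs. In wild-type the order went on with CST3, CTSA, CTSC, CTSH, CTSS, CTSZ and CTSL, from 19 down to 0.0861 CPM per kilobase. CTSS and CTSZ, and CTSZ and CTSL, differed by less than the sum of their SDs there.

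The summed level of the 10 genes was 239.6 and 243 CPM per kilobase in the libraries labelled knockout, against 138 and 133 in wild-type. Without CTSS the sum was 195 and 197 in the libraries labelled knockout, against 137 and 132 in wild-type. CTSS made up 18.5% and 19.0% of the summed level in the libraries labelled knockout, against 0.355% and 0.515% in wild-type. The share of LGMN was 7.35% and 6.65% in the libraries labelled knockout, against 21.0% and 20.1% in wild-type. CTSD held 21.5% and 21.9% in the libraries labelled knockout and 29.6% and 31.1% in wild-type, although its own level was higher in the libraries labelled knockout. Set against CTSS, CST3 had 0.852 and 0.791 times its level per kilobase in the libraries labelled knockout, and 40.4 and 26.7 times in wild-type.

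**Figure D3:**
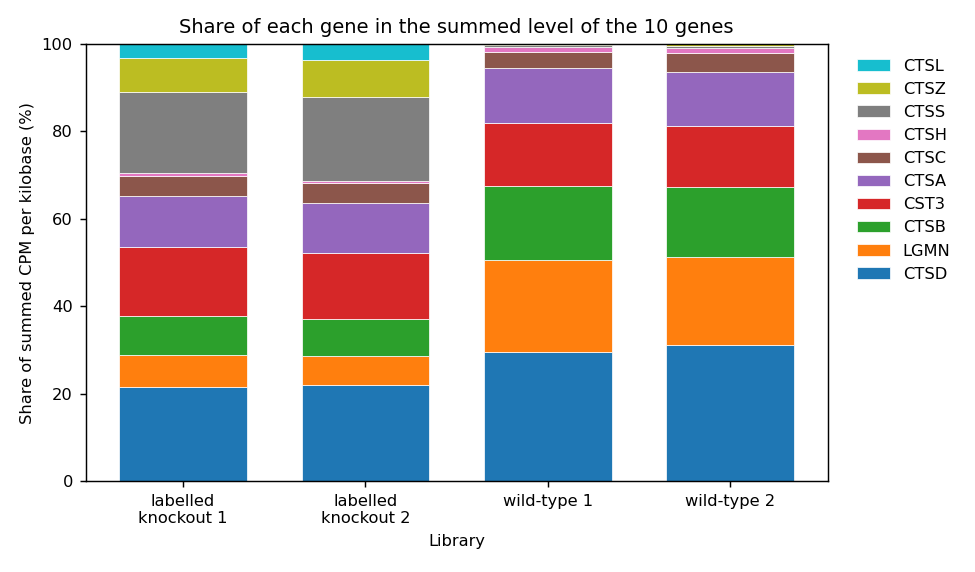
Share of each gene in the summed CPM per kilobase of the 10 genes, by library. CTSS, CTSZ and CTSL form a visible block in both libraries labelled knockout (CTSS at 18.5% and 19.0%) and a hairline in both wild-type libraries, where CTSD, LGMN and CTSB take the largest shares.

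The chromosomal surroundings of CTSS and CTSL, the 2 genes with the largest log2 fold changes, are given as a description. Around CTSS, each of the 10 nearest tested genes, within 240.7 kb, was higher in the libraries labelled knockout, with a median log2 fold change of 2.05. The gene next to it is CTSK, cathepsin K, a collagen-degrading protease of osteoclasts, at a log2 fold change of 2.80 with 5.87 and 6.34 CPM in the libraries labelled knockout and 0.918 and 0.817 CPM in wild-type. MCL1, an anti-apoptotic gene, was at 3.07, SETDB1, a histone methyltransferase, at 2.14, GOLPH3L at 1.97, ARNT, a partner of the hypoxia factors, at 1.92, CERS2, a ceramide synthase, at 1.41, ENSA at 1.24 and ANXA9 at 0.52. ANXA9 did not pass the test without either library labelled knockout or either wild-type library, with no composition factor or with no expression filter (adjusted p = 0.0512 to 0.348, edgeR quasi-likelihood test). By the DESeq2 Wald test on all 4 libraries its adjusted p was 0.138. The non-coding rows RF00561 and RF00015 had no or nearly no wild-type reads and at most 1.64 CPM in the libraries labelled knockout. CTSS was at 6.28, above each of the 8 protein-coding neighbours. The part of the region in the change of CTSS was not tested.

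Around CTSL, of the 10 nearest tested genes 3 were higher, 4 lower and 3 did not pass the test, with a median log2 fold change of -0.07. These genes lay within 1665.3 kb, a far wider window than that of CTSS. They were TUT7 at 0.87, SHC3 at 1.75 and the pseudogene RPS10P3 at 0.92, all higher, and ISCA1 at -0.54, GAS1 at -1.53, DAPK1 at -1.67 and S1PR3 at -0.29, all lower. GOLM1, CDK20 and SPIN1 had log2 fold changes of 0.05, -0.18 and 0.18. Around CTSZ 3 neighbours were higher and 4 lower, with a median of -0.22. The neighbours of the remaining 7 genes had medians between -0.43 (CTSD) and 0.57 (LGMN), and those of LGMN were higher for 6 of 10 while LGMN itself was lower.

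**Figure D4:**
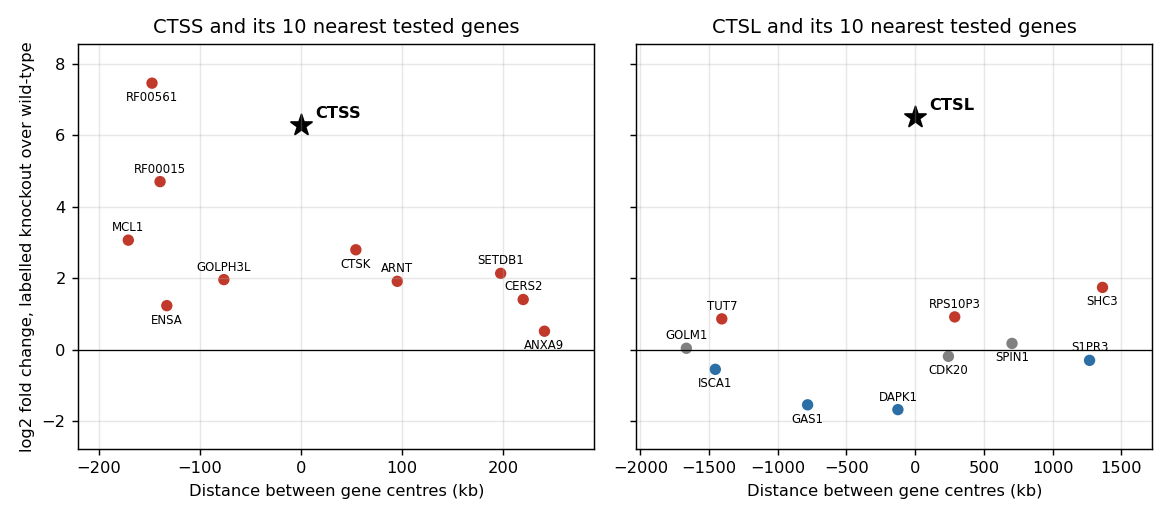
Log2 fold change (libraries labelled knockout over wild-type) of the 10 nearest tested genes of CTSS and CTSL against distance between gene centres in kilobases, with the gene itself as a star. All neighbours of CTSS lie above 0 (red, higher by the test), whereas those of CTSL lie on both sides of 0 (blue lower, grey not past the threshold). The neighbours of CTSL reach out to 1665.3 kb, much farther than those of CTSS. RF00561 had 0 wild-type reads, so its fitted value is no measure of size.

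Among 12767 protein-coding genes, the nearest to CTSS by root mean square difference of log2(CPM + 0.5) were TCIRG1 (0.26), PYGL (0.374) and PODXL2 (0.473). The nearest to CTSL were SUCNR1 (0.125), RNF135 (0.134) and ADAMTSL4 (0.173). TCIRG1 encodes the a3 subunit of the lysosomal proton pump, best known in osteoclasts, and PYGL the liver glycogen phosphorylase. SUCNR1 encodes a succinate receptor. With 4 libraries, this measure mostly reflects the level in each group.

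The other genes of the lysosomal system moved in both directions. Over 10 lists with 132 genes, 114 were tested, with a median log2 fold change of -0.12. Of those tested, 36 were higher (31.6%) and 47 lower (41.2%), against 33.7% and 32.3% of all genes tested. The same shares of all genes apply to the counts of each list below. Besides the 10 genes, 7 other cathepsins were listed, of which 6 were tested, 1 was higher and 3 lower, with a median of -0.39. CTSK was higher, and CTSG, CTSW and CTSV were lower. CTSG, a serine protease of neutrophil granules that shares only the name, was at 89.8 and 94.8 CPM in the libraries labelled knockout, against 408 and 393 CPM in wild-type, a log2 fold change of -2.12 (SE 0.07; edgeR quasi-likelihood test, adjusted p = 6.37e-40). CTSW, or lymphopain, a papain-family enzyme of cytotoxic lymphocytes, was at -0.61, and CTSV, the closest relative of CTSL, at -1.45. CTSF and CTSO had log2 fold changes of -0.18 and 0.94 and did not pass the test. CTSE had 0 to 2 reads in each library and was not tested.

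Of 8 other lysosomal peptidases, all tested, 2 were higher and 3 lower, with a median of -0.17. TPP1, tripeptidyl peptidase 1, was higher (0.89) and CPVL, a carboxypeptidase first described in macrophages, was lower, at 7.02 ± 0.298 CPM in the libraries labelled knockout and 40.1 ± 5.05 CPM in wild-type (SD, n = 2 each). SCPEP1 (-0.31) and GGH (-0.36) were slightly lower. Without knockout replicate 1 or 2 neither passed the test (adjusted p = 0.0548 and 0.247 for SCPEP1, 0.105 and 0.0923 for GGH, edgeR quasi-likelihood test), which left CPVL as the 1 lower gene. GGH also missed the threshold without wild-type replicate 2 (adjusted p = 0.0558, edgeR quasi-likelihood test). CPQ, a secreted dipeptidase, was higher from 1 and 2 wild-type reads, against 23 and 22 in the libraries labelled knockout.

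Other inhibitors of the papain family went both ways. Of 11 other cystatins, 3 were tested, 2 were higher and 1 lower. CST7, cystatin F, a lysosomal cystatin that inhibits cathepsin C, was at 208 and 201.5 CPM in the libraries labelled knockout, against 23.5 and 22.5 CPM in wild-type. Its log2 fold change was 3.15 (SE 0.09, edgeR quasi-likelihood test, adjusted p = 2.75e-47). CSTA, cystatin A, was at 17.6 and 18.1 CPM in the libraries labelled knockout, against 1.72 and 2.01 CPM in wild-type, and the groups did not overlap. CSTB, cystatin B, a cytosolic inhibitor, went the other way, at 55.1 and 54.2 CPM in the libraries labelled knockout, against 178 and 171.5 CPM in wild-type. The other 8 listed cystatins had 0 reads in all 4 libraries. Per kilobase, CST3, CST7, CSTA and CSTB together summed to 288 and 280.3 in the libraries labelled knockout, against 91.4 and 87.5 in wild-type. Of these sums CST7 alone held 223.7 and 216.7 in the libraries labelled knockout, against 25.2 and 24.2 in wild-type. Of the other cystatins in the sum, CST3 and CSTA were higher and CSTB lower, so the rise of the sum came mainly from CST7. Sums per kilobase depend on the deposited lengths, 930 bases for CST7, 3695 for CST3 and 3935 for CSTB. In CPM without length and without CST3, the other cystatins summed to 281 and 274 in the libraries labelled knockout. In wild-type that sum was 203 and 196 CPM. The 11 papain-family cathepsins summed to 134 and 136 CPM per kilobase in the libraries labelled knockout, against 67.3 and 63.9 in wild-type.

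Lysosomal enzymes reach their compartment by mannose 6-phosphate tags and sorting receptors. Of 13 such genes tested, 4 were higher and 2 lower, with a median of 0.08. IGF2R, the cation-independent receptor, was at 0.61 and VPS26A, a retromer subunit, at 0.63, while SORT1, sortilin, was at -1.26 and NAGPA, the uncovering enzyme of the tag, at -0.95. The phosphotransferase genes GNPTAB (-0.05) and GNPTG (-0.05) and the second receptor M6PR (0.08) did not pass the test.

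The MiT/TFE transcription factors drive lysosomal genes, and nutrient sensing at the lysosome controls them. Of 16 genes in this list, 15 were tested, 3 were higher and 9 lower, with a median of -0.39. TFEB was at -0.36 and TFE3 at -0.30, both lower. The call for TFEB was lost by the DESeq2 Wald test (adjusted p = 0.108). It was also lost by edgeR's quasi-likelihood test without either library labelled knockout, without wild-type replicate 1, with upper-quartile scaling and with no expression filter, and that for TFE3 without knockout replicate 2 or wild-type replicate 1 (adjusted p = 0.0509 to 0.324 over these fits, edgeR quasi-likelihood test). MITF had 30 and 21 reads in the libraries labelled knockout and 0 in both wild-type libraries, at least 19.2-fold higher when 3 counts are taken as the floor of both wild-type libraries together, and TFEC had 1 read in all. RRAGA (-1.04), LAMTOR5 (-0.96), RRAGC (-0.90) and LAMTOR4 (-0.77), parts of the nutrient sensor, were lower.

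The proton pump acidifies lysosomes. All 17 of its listed genes were tested, and 10 were lower, 2 higher and 5 did not pass, at a median log2 fold change of -0.43. By the DESeq2 Wald test, without an expression filter or without either library labelled knockout, 8 were lower. ATP6V1B2 (-0.91), ATP6V1D (-0.82) and ATP6V1G1 (-0.78) had the largest falls of those named by rule. TCIRG1 had 165 and 153 CPM in the libraries labelled knockout, against 2.01 and 2.2 CPM in wild-type, with no overlap. Its log2 fold change was 6.24 (SE 0.13; edgeR quasi-likelihood test, adjusted p = 5.58e-56). The other a-subunit genes, ATP6V0A1 and ATP6V0A2, were at 0.15 (not passed) and 0.24. The call for ATP6V0A2 was lost with no composition factor and without either library labelled knockout, so that TCIRG1 was then the 1 higher gene, while 4 were higher without wild-type replicate 2 or with upper-quartile scaling.

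Of 30 other lysosomal hydrolases, 29 were tested, 12 were higher and 10 lower, with a median of 0.14. MAN2B1, lysosomal alpha-mannosidase, was at 2.33, AGA, which cleaves asparagine-linked sugars, at 1.74, GUSB, beta-glucuronidase, at 1.74 and ARSB, arylsulfatase B, at 1.46. GLB1, beta-galactosidase, which forms a complex with cathepsin A, was at 1.31, and NEU1, the neuraminidase of that complex, at -0.01 without passing the test. PSAP, the precursor of sphingolipid activators, was at -0.46. Of 14 lysosomal membrane genes, 13 were tested, 6 were higher and 4 lower, with a median of 0.28. LAPTM5, a protein of blood cells, was at 1.03 and the tetraspanin CD63 at 0.94, while MCOLN1, a cation channel, was at -1.34 and CTNS, the cystine exporter, at -0.82. CD68, a macrophage membrane protein, had 1 read in the 4 libraries.

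Cathepsins also act in endosomal antigen processing and sensing. Of 9 genes listed for these steps, 4 were tested, 2 were higher and 1 lower. CD74, the invariant chain that cathepsin S trims, had 1554 and 1532 reads in the libraries labelled knockout, against 8 and 12 in wild-type, a log2 fold change of 7.43 (SE 0.17). UNC93B1, which escorts the endosomal receptors, was at 1.42 and HLA-DMA, a peptide-loading chain, at -0.74. IFI30, a lysosomal thiol reductase, had 1 read over the libraries labelled knockout and 6 over wild-type. TLR7, TLR8 and TLR9 had 0 to 4 reads in each library.

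Of 8 serine proteases that cathepsin C activates, 7 were tested, 2 were higher and 5 lower. PRTN3, proteinase 3, was at 8.23 on the log2 scale, and ELANE, neutrophil elastase, had 422 and 426 reads in the libraries labelled knockout and 0 in both wild-type libraries. The lower 5 were CTSG, also counted among the cathepsins, GZMB (-2.80), GZMH (-2.64), GZMA (-1.65) and GZMM (-0.97), the last 4 being granzymes of cytotoxic lymphocytes.

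**Figure D5:**
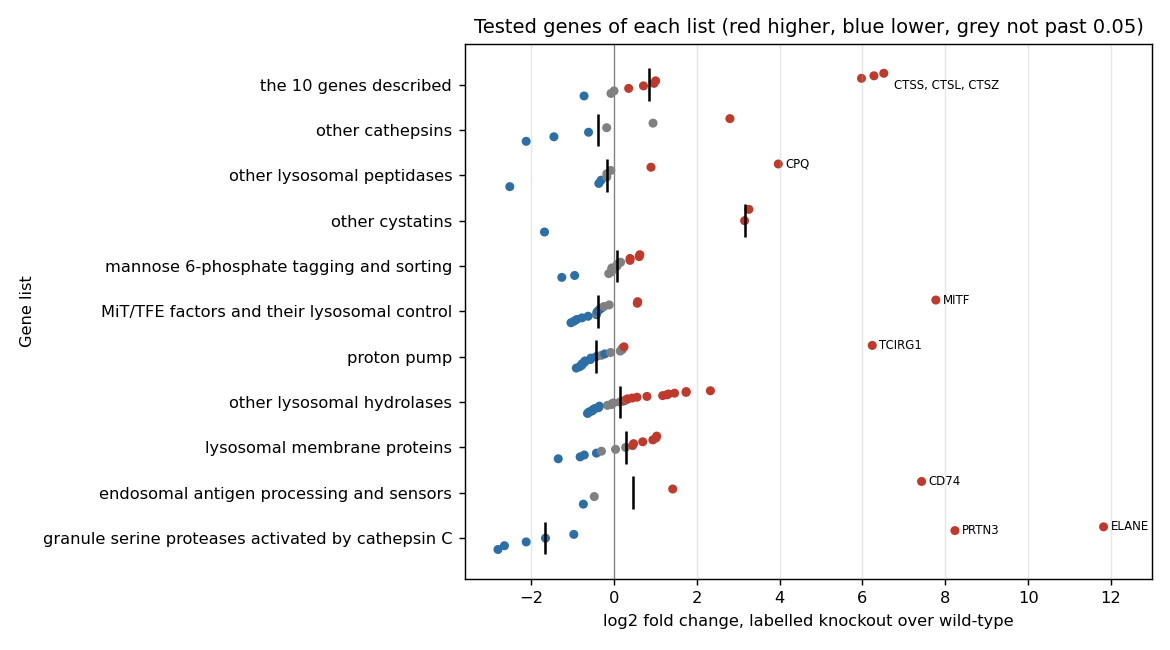
Log2 fold change (libraries labelled knockout over wild-type) of the tested genes of each list, with black bars at list medians. Red points passed the test as higher, blue as lower and grey did not pass. The medians lie between -1.65 and 3.15, and single genes such as TCIRG1 stand far from the rest of their list. MITF and ELANE had 0 wild-type reads, so their fitted values are no measure of size.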

How the data were processed

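RNA-seq read counts per gene from 4 Jurkat libraries, 2 labelled MATR3 knockout and 2 wild-type, were deposited by the authors as raw counts without normalization. Per the submitters' processing notes, the tools included featureCounts 1.5.0-p3, HISAT2 2.0.5 and CASAVA 1.8. Options, strand setting and build are not named in the sources used here. Names, lengths (in base pairs) and coordinates are those of the deposited table, per the file headers.

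Knockout was tested against wild-type with edgeR 4.0.16 under R 4.3.3 on the whole table: TMM scaling, the default expression filter (10 counts minimum, 15 in total), a two-sided quasi-likelihood test and Benjamini-Hochberg adjustment over 15294 genes with a threshold of 0.05. CPM values use the TMM factors. Standard errors refer to the log2 fold change. Total counts of 15008554 to 17477643 leave genes with few reads imprecise. Replicates of each group differed by more than counting noise (a chi-square of 2.21 per gene for knockout and 5.83 for wild-type). Same-numbered libraries did not deviate together (correlation 0.0261 over genes), so no block was used.

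The 10 genes and the 14 lists were chosen with earlier results of these data known. Genes named were the 10, the MATR3 rows, up to 4 of the most changed genes of each lysosomal list averaging at least 5 CPM, the 5 nearest tested genes on each side of the 2 most changed of the 10, the 3 genes most like them, and overlapping rows. Of the overlapping rows not described above, AC025857.2, on the same strand as CTSB, held 3 to 7 reads per library. AL008726.1 at CTSA and AL121894.2 at CST3 held 0. Other list genes named were chosen after their values were seen. Apart from MPO, genes the rule takes from the marker lists are given only as sums and counts. Of 6 B cell markers 3 were tested, 2 higher (1 without either knockout library) and 1 lower, and of 6 epithelial markers 3 were tested, all 3 higher. The 2 higher B cell markers, PAX5 and BLNK, had 0 to 2 reads in each wild-type library, so they could hardly be called lower.

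Alternatives were other scalings, DESeq2 1.42.0, voom in limma 3.58.1, other filters, protein-coding genes only, a replicate block and leaving out each library. The tests were first run on simulated counts.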

Additional observations from a re-analysis of the deposited data

How the results depend on the processing

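The 7 higher and 1 lower of the 10 genes kept these counts under each of the 13 alternatives, except that leaving out wild-type replicate 2 gave 2 lower, CTSB joining LGMN. When each library was left out, the count of higher genes stayed at 7 and that of lower genes ranged from 1 to 2. With the replicate block the counts were 7 and 1, and same-numbered libraries share only a number. CTSB and CTSH, which passed no test with all libraries, changed sign in places. CTSB was at 0.0080 without wild-type replicate 1, and its lowest value, -0.142, came without wild-type replicate 2. CTSH was at -0.043 with no composition factor and -0.00041 with limma voom, and it ranged from -0.112 to 0.113 when each library was left out, with -0.0838 without wild-type replicate 2. The cause was not tested. Ranked by CPM without length in the libraries labelled knockout, CTSS came at position 1, CTSD 2, CTSA 3, CTSB 4, CST3 5, CTSC 6 and CTSZ 8. In wild-type the same ranking put CTSB at position 1, CTSD at 2 and LGMN at 3, so the order there depends on the deposited lengths. Among the proton pump genes 1 to 4 were called higher across alternatives. Without an expression filter the median log2 fold change of all genes shifted by 0.13. Depth limits CTSL and CTSZ, whose wild-type reads were 7 and 21.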
